A study of Mus musculus with 8 samples.

Results

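The 10 genes described here make, sense and remove prostaglandins in the mouse kidney. They were listed by symbol and comprise a phospholipase gene (Pla2g4a), the cyclooxygenase genes (Ptgs1 and Ptgs2), prostaglandin synthase genes (Ptges, Ptges2 and Ptgds), receptor genes (Ptger1, Ptger2 and Ptger4) and a breakdown enzyme gene (Hpgd). All 10 were on the array, among 20657 named genes, and 8 of them were bright enough to be tested, among 14209 genes. Kidneys came from mice labelled male and 12 weeks old, whose strain the labels do not give. Control mice, 4 samples, ate standard chow, and the other 4 samples came from mice given cinacalcet HCl for 5 days, a drug that makes the calcium-sensing receptor more responsive to calcium. The stated dose is 1 mg per g of body weight, with no note of whether that is a daily amount. Total RNA of the whole kidney, snap frozen, was hybridised to 1 one-colour Agilent array per sample. Levels below are log2 intensities relative to the 75th percentile of each array, so 0 is a spot at that percentile and -4.99 to -4.38 was the dimmest signal still well above background on an array. A difference of 1 is 2-fold.

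Prostaglandins are short-lived lipid signals made from arachidonic acid, which cytosolic phospholipase A2 frees from membranes. A cyclooxygenase turns it into an unstable intermediate that the terminal synthases convert into prostaglandin E2, prostaglandin D2 and related products. These act on G protein-coupled receptors near the cell that made them and are then taken up, oxidised by the dehydrogenase that Hpgd encodes, and reduced further. In the kidney, prostaglandin E2 adjusts renin release, medullary blood flow and the reabsorption of salt and water. The inducible cyclooxygenase lies mainly in the macula densa with its neighbouring thick limb cells and in medullary interstitial cells, and the constitutive one mainly in the collecting duct and vessels.

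Signal from the Y chromosome was lacking on 3 arrays, against the labels: control 4, cinacalcet 2 and cinacalcet 3. There, none of 4 Y-linked genes (Ddx3y, Uty, Kdm5d and Eif2s3y) was above background, whereas Xist, the X-inactivation transcript, was at 0.46 to 0.95. Among the arrays with Y-linked signal, cinacalcet 1 had Xist at -4.22, also above background, and the rest had it at -6.99 to -6.38, below background. Why cinacalcet 1 had both signals was not tested. The control group thus held 1 such array and the cinacalcet group 2. The prostaglandin genes are therefore given on all 8 arrays and with the absence of Y-linked signal as a term in the fit, called the Y-signal block, and some also within the 5 arrays that had the signal. The genes of other lists that are named as having passed on all 8 arrays passed with the block as well. All 8 markers of the proximal tubule were above background on every array, and none passed for cinacalcet, although Slc22a6 fell with the block (log2 -0.43, adjusted p = 0.0307). In that fit 4 of them, among them Kap and Slc22a6, were lower on the arrays without Y-linked signal, Kap by a log2 difference of -1.41 (adjusted p = 0.0233). Precision is limited by having 4 arrays a group, and since separate animals are not stated for the samples, the p-values cover only the spread among these 8.

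On all 8 arrays no prostaglandin gene passed an adjusted p of 0.05 in limma, where 8.02% of all genes did (3.37% higher and 4.64% lower). None of the 8 had groups that did not overlap, against 17.8% of all genes. Their median log2 fold change, cinacalcet over control, was -0.06, and that of all tested genes was -0.03. With the Y-signal block 2 of the 8 passed, Hpgd lower and Ptgs1 higher, where 17.0% of all genes passed (6.64% higher and 10.4% lower). On the 5 arrays with Y-linked signal 1 of the 8 passed, Hpgd, where 7.85% of all genes did. In the block fit 4 of the 8 differed between arrays without and with Y-linked signal, 3 higher without it and 1 lower, where 19.1% of all genes differed (8.31% higher and 10.8% lower).

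**Figure D1:**
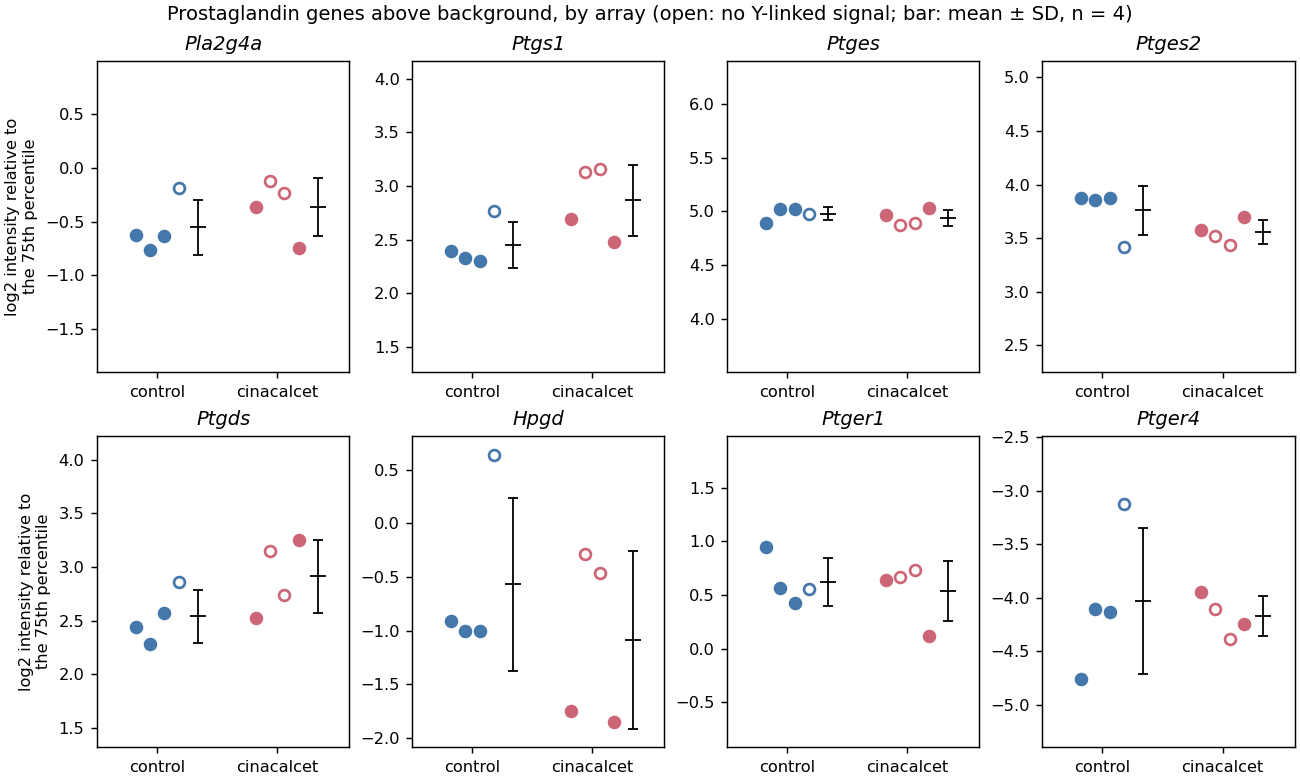
Level on every array of each of the 8 prostaglandin genes tested, as log2 intensity relative to the 75th percentile of the array (y axis, same span in each panel), for control and cinacalcet (x axis). Points are arrays, open where Y-linked signal was lacking, and bars are group means ± SD (n = 4). Hpgd shows the open points above the filled ones within each group, and the cinacalcet points below the control points of the same kind.

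Hpgd, which encodes the NAD-dependent dehydrogenase that inactivates prostaglandin E2 and related prostaglandins, had the largest SD within a group among the 8 genes tested. It was at -0.91, -1.01 and -1.003 on controls 1 to 3 and at 0.64 on control 4. On cinacalcet 1 and cinacalcet 4 it was at -1.75 and -1.85, and on cinacalcet 2 and cinacalcet 3 at -0.28 and -0.46. The arrays thus fell on 4 levels. Among the 5 arrays with Y-linked signal both cinacalcet arrays lay below all 3 controls, and among the other 3 both cinacalcet arrays lay below the control.

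Over all 8 arrays the groups overlapped, with -0.57 ± 0.81 (SD, n = 4) in controls and -1.09 ± 0.83 with cinacalcet. The log2 fold change was -0.52 (SE 0.50, 95% interval -1.67 to 0.63, limma adjusted p = 0.531). With the Y-signal block Hpgd fell 1.86-fold, a log2 fold change of -0.89 (SE 0.07, 95% interval -1.07 to -0.72, adjusted p = 0.00377). Within the 5 arrays that had the signal it also fell, by 0.83 on the log2 scale (SE 0.08, adjusted p = 0.0210). In the other 3 the difference was -1.02, with no test. The difference between these last values had an interval of -0.53 to 0.15 (interaction adjusted p = 0.583). The call with the block held with each array left out (log2 fold changes of -0.94 to -0.83, adjusted p of 0.00313 to 0.0127), and normexp background correction gave -0.63 in the same fit (adjusted p = 0.000758).

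The fall in Hpgd was seen on both of its probes. The dimmer probe was at -2.23, -2.47, -2.54 and -0.85 on controls 1 to 4 and at -3.19, -1.92, -2.06 and -2.99 on cinacalcet 1 to 4. The probes had r = 0.984 over the 8 arrays, which share treatment and the Y-linked split, and the dimmer one gave a log2 fold change of -0.84 with the block (SE 0.12, adjusted p = 0.00805 over all probes).

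Hpgd differed by more with Y-linked signal than with the drug, with intervals of the 2 sizes that do not overlap. In the fit with treatment as a term, Hpgd was 2.84-fold higher on the 3 arrays without Y-linked signal, a log2 difference of 1.51 (SE 0.08, 95% interval 1.33 to 1.69, adjusted p = 4.81e-05). By slide position the log2 fold change for cinacalcet was -0.52 with slide row as a block, -0.10 within row 1 and -0.93 within row 2, and 0.58 with slide column as a block, with none past the threshold (adjusted p up to 0.902). In row 1 only cinacalcet 3 lacked Y-linked signal, and in row 2 1 array of each group did. The column block compares the groups through 2 pairs of arrays, and in both only the cinacalcet array lacked that signal. Array weights, without the block, gave 0.10 (adjusted p = 0.847).

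**Figure D2:**
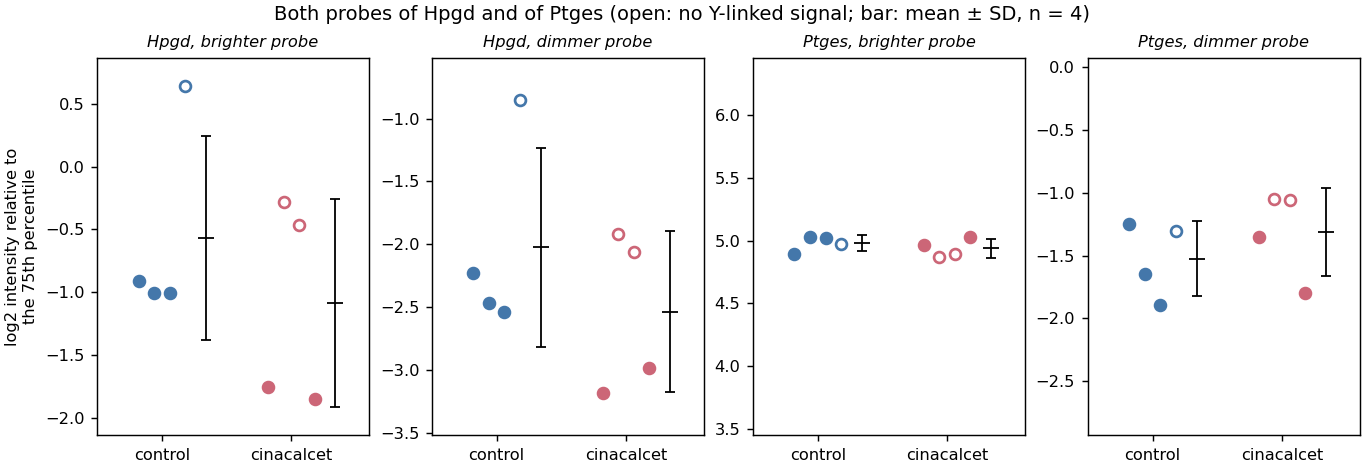
Levels of both probes of Hpgd and of Ptges on every array, as log2 intensity relative to the 75th percentile (y axis, same span in each panel), for control and cinacalcet (x axis). Open points lack Y-linked signal and bars are means ± SD (n = 4). Both probes of Hpgd place the arrays on 4 levels in the same order, with the dimmer probe lower throughout. The brighter Ptges probe stays between 4.87 and 5.03 and the dimmer one runs from -1.89 to -1.05.

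Ptgs1, the constitutive cyclooxygenase gene, passed as higher with cinacalcet only in fits with the Y-signal block or array weights. It was at 2.39, 2.33 and 2.30 on controls 1 to 3 and at 2.76 on control 4. On cinacalcet 1 to 4 it was at 2.69, 3.13, 3.16 and 2.48. Every cinacalcet array lay above controls 1 to 3, and control 4 lay above cinacalcet 1 and cinacalcet 4, so that the groups overlapped. The log2 fold change was 0.42 on all 8 arrays (SE 0.18, 95% interval 0.01 to 0.83, limma adjusted p = 0.174). With the Y-signal block Ptgs1 rose 1.23-fold (log2 0.29, SE 0.07, adjusted p = 0.0328), but of the 8 block fits that omitted an array only 2 kept this call. Those omitted control 1 and cinacalcet 4, and the other 6 had adjusted p up to 0.0996. The 5 arrays that had the signal gave 0.25 (adjusted p = 0.148). Ptgs1 was 1.41-fold higher on the arrays without Y-linked signal (log2 0.50, adjusted p = 0.00476). Within slide rows 1 and 2 the log2 fold changes for cinacalcet were 0.61 and 0.23 (adjusted p of 0.161 and 0.949).

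Ptgs2, which encodes the inducible cyclooxygenase, was below the measurable range on all 8 arrays. Its probe is printed on 10 spots, of which 8 to 10 per array were usable, and none of these was well above background. The mean over spots was -6.53 to -6.27 on controls and -6.88 to -6.11 on cinacalcet arrays. Over all 8 arrays the SD between spots of an array was 0.12 to 0.67. No fold change is given, since both groups lay below the dimmest measurable signal. Nos1, a marker of the macula densa, also did not pass the filter, while Ren1, the renin gene of the neighbouring granular cells, fell 1.73-fold (adjusted p = 0.0183), a call lost without control 1, control 2 or cinacalcet 3 (adjusted p up to 0.0590). RNA of a rare cell type is diluted in whole kidney, and here and below fewer cells of a type cannot be told apart from less RNA per cell.

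The promoters of these 3 genes, the 2 that passed with the block and the undetected cyclooxygenase gene, are shown so that the letters before each start site can be compared. They are the 250 bases before the RefSeq start site, GRCm38.p6, written 5′ to 3′ on the strand of the gene. Hpgd lies at chr8:56294302-56294551 on the plus strand, Ptgs1 at chr2:36230176-36230425 on the plus strand and Ptgs2 at chr1:150099781-150100030 on the plus strand. Capitals mark the letters matched by the motif search described next.
Hpgd: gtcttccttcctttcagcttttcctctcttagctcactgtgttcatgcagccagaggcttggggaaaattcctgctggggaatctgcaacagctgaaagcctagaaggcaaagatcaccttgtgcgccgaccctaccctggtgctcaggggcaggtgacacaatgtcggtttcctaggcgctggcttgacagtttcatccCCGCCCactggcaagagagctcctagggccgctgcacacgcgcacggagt
Ptgs1: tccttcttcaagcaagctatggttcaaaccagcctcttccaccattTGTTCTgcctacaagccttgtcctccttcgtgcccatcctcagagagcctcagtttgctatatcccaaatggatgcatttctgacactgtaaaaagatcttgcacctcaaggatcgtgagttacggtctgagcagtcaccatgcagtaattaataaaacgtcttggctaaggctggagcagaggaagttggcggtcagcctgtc
Ptgs2: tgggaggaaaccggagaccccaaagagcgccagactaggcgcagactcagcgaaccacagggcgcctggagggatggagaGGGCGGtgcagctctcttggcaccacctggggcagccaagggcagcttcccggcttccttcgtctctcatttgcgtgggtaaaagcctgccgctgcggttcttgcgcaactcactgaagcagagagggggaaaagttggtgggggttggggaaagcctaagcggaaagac

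The search looked on both strands of these windows for TATAAA (the TATA box, present in 12.4% of 32851 RefSeq promoter windows of this length), TGACGTCA (the cAMP response element, 1.55%), its shorter form TGACG (17.8%), CACGTG (the E-box, 6.02%), GGGCGG (the GC box, 32.7%), CCAAT (33.85%), AGAACA (part of the glucocorticoid response element, 16.1%) and an NF-kB-like site (1.21%). TGACG overlaps TGACGTCA by construction. The Hpgd window held 1 GC box at position -50 from the start site, on the opposite strand, and the Ptgs2 window held 1 GC box at position -170. The Ptgs1 window held 1 AGAACA at position -204, on the opposite strand. None of the other motifs was found in the 3 windows, which says only that these letters were not there. RefSeq windows matched 9 of the 10 genes, and Pla2g4a had 2 start sites.

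Pla2g4a, the gene of the cytosolic phospholipase that frees arachidonic acid, was at -0.63, -0.77, -0.64 and -0.18 on controls 1 to 4. On cinacalcet 1 to 4 it was at -0.37, -0.12, -0.23 and -0.74. The highest values of each group were those of the arrays without Y-linked signal. For cinacalcet the log2 fold change was 0.19 (SE 0.17, 95% interval -0.20 to 0.58, adjusted p = 0.498), and 0.08 with the block (interval -0.14 to 0.31, adjusted p = 0.595). Pla2g4a was 1.35-fold higher on the arrays without Y-linked signal (adjusted p = 0.0256).

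Among the synthase genes none passed for cinacalcet with or without the block. Ptges2, encoding a membrane-associated prostaglandin E synthase, was at 3.88, 3.86 and 3.88 on controls 1 to 3 and at 3.42 on control 4. With cinacalcet it was at 3.58, 3.52, 3.43 and 3.70, so that all 4 arrays lay below controls 1 to 3 and above control 4. The log2 fold change was -0.20 (SE 0.12, 95% interval -0.48 to 0.08, adjusted p = 0.314). Without control 4 it was -0.31 and passed (adjusted p = 0.0281), and with the block it was -0.13 (adjusted p = 0.275). Ptges2 was 1.22-fold lower on the arrays without Y-linked signal (log2 -0.29, adjusted p = 0.0447).

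Ptges, the inducible microsomal prostaglandin E synthase gene, had 2 probes that disagreed. The brighter one, which stood for the gene, was at 4.89 to 5.02 in controls and 4.87 to 5.03 with cinacalcet, a log2 fold change of -0.04 (95% interval -0.20 to 0.12, adjusted p = 0.729), and -0.02 with the block (adjusted p = 0.821). The dimmer one was at -1.25, -1.65, -1.89 and -1.30 on controls 1 to 4 and at -1.35, -1.05, -1.06 and -1.80 on cinacalcet 1 to 4. Its log2 fold change was 0.21 (SE 0.21, adjusted p = 0.543). Over the 8 arrays the probes ran opposite to each other, with r = -0.921, and which of them follows the Ptges transcript was not tested.

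Ptgds, encoding the lipocalin-type prostaglandin D synthase, was at 2.44, 2.29, 2.57 and 2.86 on controls 1 to 4. On cinacalcet 1 to 4 it was at 2.53, 3.15, 2.74 and 3.25. The groups overlapped, since controls 3 and 4 lay above cinacalcet 1. Its log2 fold change was 0.38 (SE 0.19, 95% interval -0.06 to 0.81, adjusted p = 0.233) and 0.32 with the block (adjusted p = 0.265). Its 2 highest arrays, cinacalcet 2 and cinacalcet 4, lay on opposite sides of the Y-linked split, and the difference between arrays without and with that signal did not pass (log2 0.22, adjusted p = 0.454).

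The receptor genes did not pass on any of these fits. Ptger1, the gene of the EP1 receptor, which raises intracellular calcium and inhibits sodium reabsorption in the collecting duct, was at 0.94, 0.56, 0.42 and 0.56 on controls 1 to 4 and at 0.64, 0.67, 0.73 and 0.12 on cinacalcet 1 to 4. The difference was -0.08 on the log2 scale (95% interval -0.46 to 0.29, adjusted p = 0.770), and 0.06 without cinacalcet 4. With the block it was -0.12 (adjusted p = 0.651). Ptger4, the gene of the cAMP-raising EP4 receptor, lay close to background, with 4 control and 3 cinacalcet arrays well above it. It was at -4.76, -4.10, -4.14 and -3.12 on controls 1 to 4 and at -3.95, -4.10, -4.39 and -4.24 on cinacalcet 1 to 4. For cinacalcet it differed by -0.14 (95% interval -0.84 to 0.57, adjusted p = 0.799), and 0.16 without control 4, the highest array. With the block the value was -0.25 (adjusted p = 0.591). The 2 sides of the Y-linked split differed in sign. On the 5 arrays with the signal Ptger4 had 0.24 (adjusted p = 0.532). On the other 3, of which 1 is a control, it had -1.12, with no test. Ptger2, which encodes the EP2 receptor and also raises cAMP, was below the measurable range throughout, with -6.57 to -4.78 in controls and -6.74 to -4.78 with cinacalcet.

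**Figure D3:**
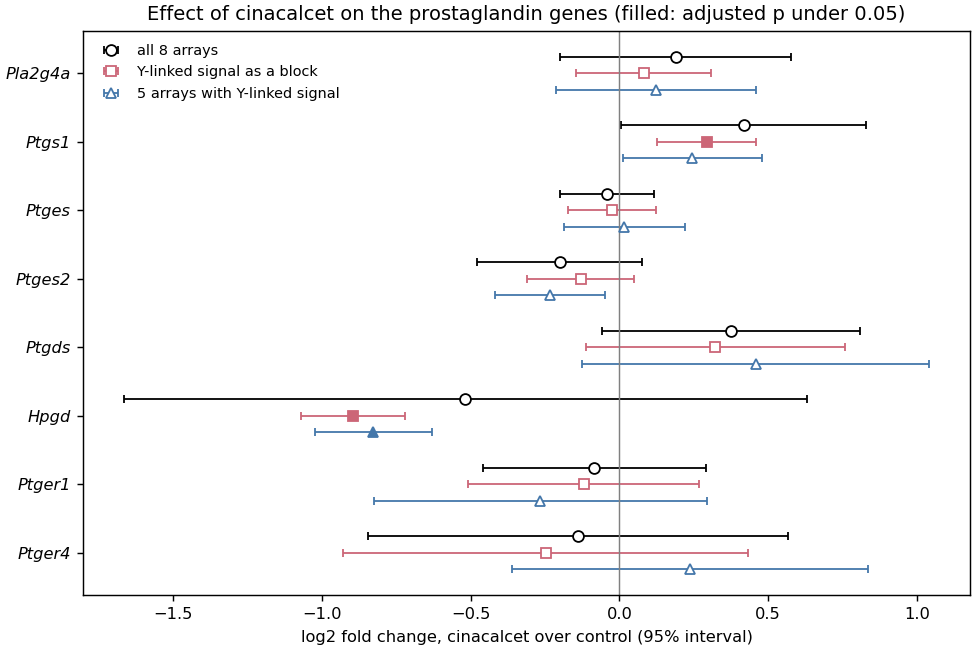
Log2 fold change, cinacalcet over control, of the 8 tested prostaglandin genes with 95% intervals (x axis) in limma on all 8 arrays (circles), with the Y-signal block (squares) and within the 5 arrays that had Y-linked signal (triangles). Filled marks passed an adjusted p of 0.05. Hpgd is filled in the last 2 fits and Ptgs1 with the block, and the interval of Hpgd on all 8 arrays runs from -1.67 to 0.63.

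Several prostaglandin genes varied together over the 8 arrays. Ptgs1 and Pla2g4a had r = 0.895, and Ptges2 ran opposite to both, with r = -0.880 for each. After treatment and the Y-linked split were removed, these values were 0.588 for Ptgs1 with Pla2g4a, 0.09 for Ptgs1 with Ptges2 and -0.442 for Ptges2 with Pla2g4a. The genes most like Ptgs1 over the 8 arrays, of 14209, were Nbl1, Tbx3, Nxph3, Mbip and Mal (r of 0.986 to 0.992). Those most like Ptges2 were Nmt1, 3110040N11Rik, Prr15l, Paip2 and Sar1b (r of 0.988 to 0.993), and those most like Ptgds were Smarcd3, Gys1, Cibar2, Rfxap and Hoxa11os (r of 0.946 to 0.971). None of these 15 genes passed for cinacalcet on the 8 arrays (adjusted p of 0.119 to 0.367). All of these correlations describe 8 arrays that share 2 groups and the Y-linked split.

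Cell markers were read beside these results. The 8 tested markers of collecting duct principal cells had summed signals of 84.1 to 104.5 in controls and 82.9 to 101.0 with cinacalcet. These sums weigh the brightest markers most. The median log2 fold change of the 8 was 0.18, and none passed. With the block 1 of them rose, the sodium channel subunit gene Scnn1b (log2 0.32, adjusted p = 0.0433), and 2 were higher on the arrays without Y-linked signal. The 9 medullary and papillary markers had 66.5 to 95.7 and 53.4 to 110.3, with a median log2 fold change of 0.31 and none past the threshold in either fit. Of 8 tested macrophage and dendritic cell markers 6 fell, with summed signals of 57.3 to 64.3 in controls and 31.1 to 46.4 with cinacalcet. Itgax passed in all 8 fits that omitted an array, and the other 5 lost theirs in 3 to 6 of them. With the block all 8 fell. Of 8 interstitial cell and fibroblast markers 3 fell and 1 rose, and with the block 4 fell and 1 rose. The part of any of these cells in the values of Hpgd and Ptgs1 was not tested.

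Among 69 other tested genes of arachidonic acid metabolism and prostaglandin signalling, 3 rose and 4 fell on all 8 arrays, or 10.1%, where 8.02% of all genes passed. With the Y-signal block 10 rose and 9 fell, or 27.5% against 17.0% of all genes. The median log2 fold change was -0.07 on all 8 arrays. These lists were chosen with earlier results of these data known, and the P450 genes had been seen to rise.

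In prostaglandin uptake and reduction, 1 of 6 tested genes fell and none rose. Ptgr2, encoding the reductase that acts on 15-keto-prostaglandin E2, the product of the Hpgd enzyme, was at 3.55, 3.63, 3.67 and 3.38 on controls 1 to 4 and at 3.11, 2.94, 2.93 and 3.04 with cinacalcet. Every cinacalcet array lay below every control. It fell 1.47-fold (log2 -0.55, SE 0.09, limma adjusted p = 0.0141) and 1.42-fold with the block (adjusted p = 0.00478). The call was lost without control 2 or control 3 (adjusted p up to 0.0523). Abcc4, an efflux pump gene for prostaglandins, and Cbr3, a carbonyl reductase gene, passed with the block only, at log2 fold changes of 0.85 and 0.74 (adjusted p of 0.00896 and 0.0250), and are named after their values were seen. Slco2a1, the prostaglandin uptake transporter gene, had 0.40 (adjusted p = 0.287) and is also named after its value was seen.

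Among 4 other tested prostanoid receptor genes 1 fell. Tbxa2r, the thromboxane receptor gene, was at 0.79, 0.72, 0.67 and 0.60 on controls 1 to 4 and at 0.23, 0.37, 0.20 and 0.17 with cinacalcet. The groups did not overlap. It fell 1.37-fold (log2 -0.45, SE 0.07, adjusted p = 0.0163; with the block adjusted p = 0.0105), and the call was lost without control 1, 2 or 3 or cinacalcet 3 (adjusted p up to 0.0586). The other 3 did not pass on all 8 arrays, and Ptgfr, the prostaglandin F receptor gene (chosen for mention because of its value), passed as higher with the block at 0.43 (adjusted p = 0.0100). Ptgdr and Ptgdr2, the prostaglandin D receptor genes, did not pass the filter.

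None of 8 other prostanoid synthase genes passed on all 8 arrays. Ptgis, the prostacyclin synthase gene, was at 0.76 to 1.12 in controls and 1.24 to 1.49 with cinacalcet (log2 fold change 0.37, adjusted p = 0.0583, and 0.0210 without control 4). With the block its value was 0.36 (adjusted p = 0.0493). Tbxas1, the thromboxane synthase gene, was at 1.37 to 1.75 in controls and 0.32 to 1.21 with cinacalcet (log2 fold change -0.72, adjusted p = 0.0638; -0.83 and 0.0113 with the block). The groups did not overlap for either gene. Macrophages express Tbxas1, and 6 of 8 macrophage and dendritic cell markers fell on all 8 arrays. The part of these cells in the values of Tbxas1 was not tested. With the block Cbr1, a carbonyl reductase gene that also acts on prostaglandin E2, rose as well, 1.78-fold (adjusted p = 0.00584); it was picked once the values were known. Cbr1 was at 6.48 to 7.39 where Y-linked signal was lacking and at 3.65 to 4.78 elsewhere.

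None of 10 tested phospholipase A2 genes passed, and 9 more did not pass the filter. Those with the lowest p were Pla2g6 and Pnpla8, calcium-independent phospholipases, with log2 fold changes of -0.41 and -0.15 (adjusted p of 0.150 and 0.366). Pla2g6 passed without control 4, at -0.59 (adjusted p = 0.00637). Of 18 signalling genes downstream of the receptors 1 fell, Plcb1, a phospholipase C gene, at 1.47 to 1.55 in controls and 0.90 to 1.17 with cinacalcet (1.35-fold, adjusted p = 0.0203), with the call lost without controls 1, 2 or 3 or cinacalcet 3 (adjusted p up to 0.0668). Taking the mean over its probes gave a log2 fold change of -0.20 in place of -0.44, which did not pass (adjusted p = 0.187).

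The other branches of arachidonic acid metabolism held the remaining calls. Of 11 lipoxygenase and leukotriene genes 1 fell, Cysltr1, a cysteinyl leukotriene receptor gene, at -2.90, -2.92, -2.60 and -3.04 on controls 1 to 4 and at -3.74, -4.03, -4.40 and -3.74 with cinacalcet (2.16-fold, adjusted p = 0.0127). The call held with each array left out (adjusted p up to 0.0451). Macrophages, whose markers fell, also express this gene, and their part in its values was not tested. Of 12 cytochrome P450 and epoxide hydrolase genes 3 rose: Cyp4a32, Cyp4a31 and Cyp4a10, whose enzymes hydroxylate fatty acids including arachidonic acid. Cyp4a32 was at 1.54, 1.86, 1.41 and 2.98 on controls 1 to 4 and at 3.08, 3.89, 4.00 and 3.86 with cinacalcet, a rise of 3.40-fold (adjusted p = 0.0295). As near-identical copies they may cross-hybridise, and all 3 calls were lost without any 1 of controls 1 to 3 or cinacalcet 2 to 4 (adjusted p up to 0.102). With the block 5 genes of this list rose and 3 fell.

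**Figure D4:**
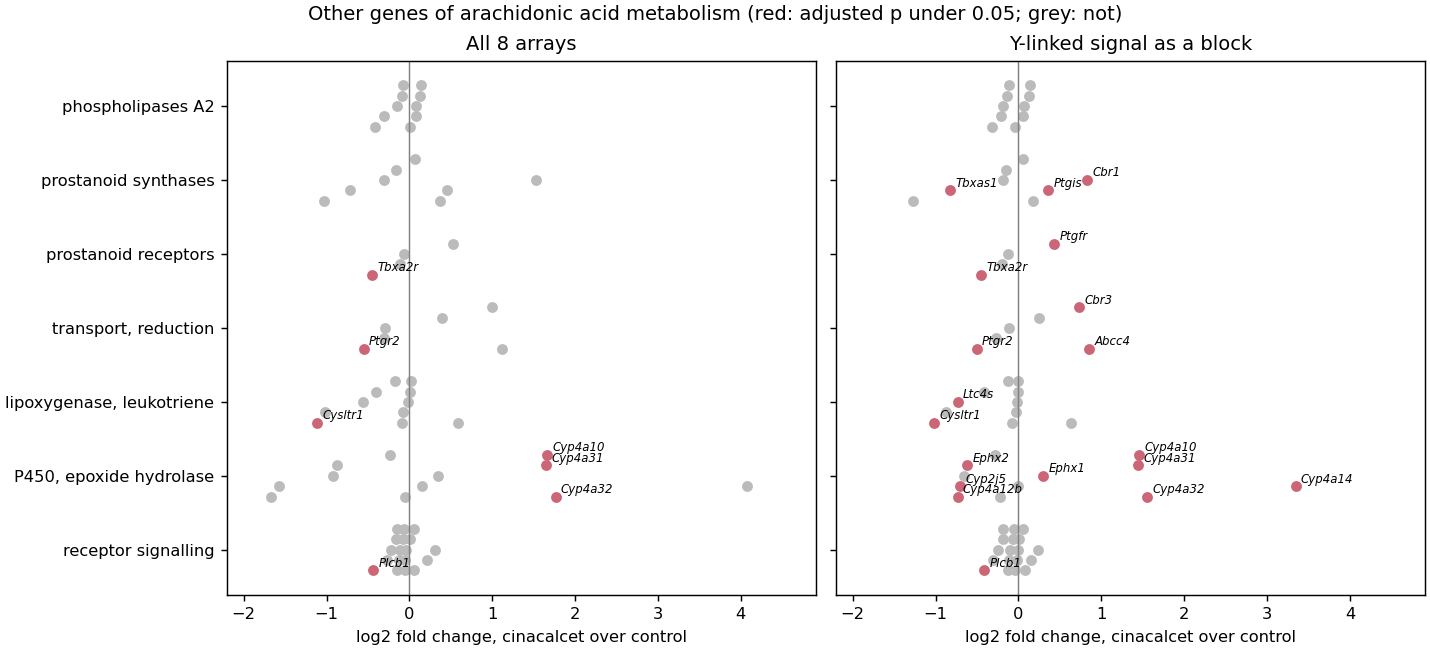
Log2 fold change, cinacalcet over control (x axis), of the other tested genes of arachidonic acid metabolism and receptor signalling, 1 point per gene and 1 row per list, on all 8 arrays (left) and with the Y-signal block (right). Red points passed an adjusted p of 0.05 in limma and carry the gene symbol. On the left 7 of 69 genes are red, and on the right 19.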

How the data were processed

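RNA of 8 mouse kidney samples, 4 control and 4 cinacalcet by title, was measured on one-colour Agilent arrays of 62976 spots. The deposited files hold spot intensity on a linear scale, background-corrected by Agilent Feature Extraction 11.0.1.1, per the file headers, with no normalization between arrays recorded there. The submitters' processing notes name version 9.5. Control spots were left out (59305 spots of 55681 probes remained), and 118 to 147 outlier spots per array were dropped. Replicate spots were averaged on the log2 scale and each array's 75th percentile (202.9 to 257.1) was subtracted. Between 51.8% and 58.0% of spots were well above background. Probes were named by accession without version through a RefSeq table of GRCm38.p6 (27235 of 55681 named). Probes well above background on at least 4 arrays were kept, and the brightest stood for its gene. The median log2 fold change of all tested genes was -0.03.

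Groups were compared in limma 3.58.1 (R 4.3.3) without covariates, with Benjamini-Hochberg adjustment over 14209 genes. The members, gene lists and the Y-signal block were chosen with earlier results of these data known. The text names all 10 genes, and of each pathway list up to 4 genes past the threshold or else the 2 with the lowest p. The genes most like a member are the 5 with the highest Pearson r, for the 3 members with the lowest p. The fit was tested on simulated data, where it recovered 34% of genes changed by 0.5 on the log2 scale and 80% of those changed by 1. Of 155 genes called there, 2 were unchanged. Alternatives covered background correction, scaling, filters, probe summary, eBayes settings, array weights, replicate and slide blocks, the Y-linked split and leaving out each array. Leaving out arrays within the Y-signal block, and that block with other scalings, were chosen after seeing the data. All arrays lay on 1 slide with 1 scan time.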

Additional observations from a re-analysis of the deposited data

Results flagged for a closer look

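Within a group of 4 arrays, 1 array lay far from the other 3 in 7 of 72 sets of values examined, where chance gives about 1 in 20. For Hpgd it was control 4, at 0.64 against -0.91 for the nearest control (gap over range 0.942). For Ptges2 it was control 4, at 3.42 against 3.86 (0.947), and for Ptger1 cinacalcet 4, at 0.12 against 0.64 (0.848). Control 4 also stood apart for Pla2g6 (0.881) and for S100a9 (0.856), and cinacalcet 1 for Cyp4a10 (0.887) and Cyp4a32 (0.846). Control 4 is the only control array without Y-linked signal, and 4 of the 7 sets are its own. Any interaction of treatment with that signal therefore rests on this 1 control array. No tested interaction between treatment and Y-linked signal passed in limma for the genes named or for any of 14209 genes, of which 1814 had an unadjusted p under 0.05.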

How the results depend on the processing

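On all 8 arrays no prostaglandin gene and 1139 genes in all passed in limma. With the Y-signal block 2 of the 8 members and 2417 genes passed, on the 5 arrays with Y-linked signal 1 member passed, and with array weights 4 members (Ptgs1, Ptges2, Ptgds and Pla2g4a) and 5438 genes did. Leaving out 1 array gave 0 to 1 members and 218 to 3356 genes, the highest without control 4, and with the Y-signal block 1 to 2 members and 1189 to 2017 genes (2017 without control 4, 1776 without cinacalcet 1 and 1751 without cinacalcet 3). With that block, normexp, quantile normalization and the mean over probes gave 2643, 2774 and 2248 genes and 2 members each. No filter left 367 genes, slide column as a block 34, within slide rows 1 and 2 the counts were 1 and 0, and the replicate block left 0 genes (2869 at an unadjusted p under 0.05), with a Hpgd value of -0.52 (adjusted p = 0.641). Deviations of same-numbered arrays from their group means had r of 0.337, -0.544, -0.360 and -0.565. The arrays numbered 1 both had Y-linked signal, and each other pair joined an array with it to 1 without. Since that split was left in the deviations, these values cannot show whether the numbers pair the samples. Leaving aside the fits that changed the Y-signal block further, a member stayed on its side of the threshold in 191 of 199 fits and passed in the other 8. Members had no call on all 8 arrays that could change sign. Ptges, Ptger1, Ptger4, Hpgd and Pla2g4a had log2 fold changes of both signs among these fits. The 22 other named genes that passed on all 8 arrays lost that call in 198 of 547 such fits, and 4 that had not passed did so in 11 of 100. No call of these other genes changed sign. Why calls change was not tested. Ptgs2 and Ptger2 lie below background, which limits them to levels.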

Other observations

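Of 4 tested neutrophil markers 3 rose with cinacalcet. S100a9, a calcium-binding protein gene of neutrophils, rose 3.50-fold (limma adjusted p = 0.0127) and kept its call with every array omitted in turn. S100a8, its partner, rose 2.99-fold (adjusted p = 0.0228), a call lost in 5 of those 8 fits. Retnlg also passed (adjusted p = 0.0226, lost in 5 of the 8), at -2.85 to -2.08 with cinacalcet, but only 1 of the 4 control arrays was above background, so no fold is given. With the Y-signal block all 3 passed. Of 7 fat cell markers 1 fell, Ucp1, the uncoupling protein gene of brown fat, measured above background on 2 of the 4 cinacalcet arrays, and the summed signal of the list ran from 45.4 to 213.7 in controls and from 21.4 to 100.4 with cinacalcet. None of 5 smooth muscle and mesangial markers passed in either fit, with summed signals of 19.6 to 30.6 in controls and 17.4 to 19.5 with cinacalcet. None of 5 adrenal markers passed on all 8 arrays, and with the block Hsd3b1 rose (adjusted p = 0.0459). It was above background on 6 of the 8 arrays but not on controls 2 and 3 (-5.32 and -4.48), so no fold is given. Cyp11b1, Cyp11b2 and Cyp11a1 did not pass the filter.

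Some P450 and epoxide hydrolase genes differed by more with Y-linked signal than with the drug. Cyp4a12a and Cyp4a12b, whose enzymes make 20-HETE from arachidonic acid in mouse kidney, had log2 differences of -3.68 and -3.74 on arrays without that signal (adjusted p of 5.25e-05 and 4.59e-05). For Ephx2, the soluble epoxide hydrolase gene, the difference was -1.22 (adjusted p = 0.000156). For cinacalcet in the same fit these genes had -0.66, -0.74 and -0.62, of which Cyp4a12a did not pass (adjusted p = 0.0511). They were picked once the values were known.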
